A study of Mus musculus with 6 samples.

Results

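Antioxidant defence was followed in mouse lung through 10 genes: 8 target genes of the transcription factor NRF2 (Nqo1, Gclc, Gclm, Slc7a11, Txnrd1, Srxn1, Hmox1 and Cbr3), the gene of NRF2 itself (Nfe2l2), and Sod2, which is driven by NF-kB. They were taken by name through the RefSeq transcript of each array probe, out of 32456 genes and unnamed probes tested, and all 10 had a probe well above background on all 6 arrays. Of these 32456, 17516 were named genes, and shares of all genes given below are over the 32456. The lungs came from 6 male C57BL6 mice, 10 weeks old, that had gone 16 h without food before an intraperitoneal injection of lipopolysaccharide (LPS, the endotoxin of Gram-negative bacteria) at 20 mg/kg. Recombinant antithrombin, the plasma inhibitor of thrombin, was given to 3 mice at 750 IU/kg at 3 h and 24 h after LPS, and the other 3 received saline at those times. Lung RNA was taken 30 h after LPS. Mice without LPS were not analysed here, so both groups carry endotoxin and no value shows what endotoxin did to a gene.

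NRF2 is held in the cytoplasm and marked for degradation by KEAP1, a thiol-rich sensor protein. Oxidants and electrophiles modify KEAP1, NRF2 then enters the nucleus with a small MAF protein, and genes that carry an antioxidant response element are transcribed. Their products make glutathione, reduce thioredoxin and peroxiredoxins, break down haem and reduce quinones and carbonyls. NF-kB, the transcription factor of the endotoxin response, drives Sod2, the manganese superoxide dismutase of mitochondria, which is induced by LPS and by tumour necrosis factor in many cell types.

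Promoter sequence shows where these response elements lie near a start site. RefSeq promoters of build GRCm38.p6, from 250 bases before to 50 bases after a start, matched 8 of the 10 genes by symbol, and those of Hmox1 and Gclc were not used here. The core of the antioxidant response element was searched as TGACNNNGC on both strands, and 4 of the 8 genes held it in at least 1 promoter: Nfe2l2, Gclm, Txnrd1 and Srxn1. Of all 32851 promoters of that length, 12.4% held it. The NF-kB consensus was searched in the same way, and Sod2 alone of the 8 held it, against 8.46% of all promoters. In Srxn1 the match began 28 bases after the start, and in the other genes it lay before it. No match was found in these windows for Nqo1, Cbr3 or Slc7a11, which says only that these letters are not in this stretch. The stretches of 60 bases that hold a match before the start are shown because they set the NRF2 genes beside Sod2. Each is written 5′ to 3′ on the strand of its gene with the match in capitals, and in Gclm and Txnrd1 the element reads on the opposite strand.
Nfe2l2, chr2:75704854-75704913, minus strand: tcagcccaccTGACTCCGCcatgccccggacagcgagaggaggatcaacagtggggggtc
Gclm, chr3:122245398-122245457, plus strand: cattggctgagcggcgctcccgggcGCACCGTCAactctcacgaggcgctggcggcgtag
Txnrd1, chr10:82859089-82859148, plus strand: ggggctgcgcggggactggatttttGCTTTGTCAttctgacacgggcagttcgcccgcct
Sod2, chr17:13007731-13007790, plus strand: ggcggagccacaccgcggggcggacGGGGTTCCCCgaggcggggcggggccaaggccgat

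The Sod2 match begins 83 bases before the start and reads as the NF-kB consensus on either strand at the same place. The Txnrd1 match belongs to 1 of 3 promoters annotated for that gene. A match is a description of the sequence and not a measured binding site.

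Each array was read in 1 colour, and between 71.2% and 73.3% of its gene spots were well above background, with 0 saturated spots. Values are on a log2 scale with the 75th percentile of each array subtracted, so 0 is the signal of that percentile, and each label names a separate mouse. All 6 arrays lay on 1 slide with 1 scan date. Saline mouse 2 stood apart from the other saline mice: over all tested genes (a description across genes and not across replicates) its mean Pearson r was 0.993 with the antithrombin arrays and 0.989 with the other saline arrays. Markers fixed for alveolar type 2 cells (9 of 9), club cells (8 of 8) and endothelium (10 of 10) were well above background on all 6 arrays, as were 7 of 8 for alveolar type 1 cells. Of 8 hepatocyte markers, Apoa1, Ttr and Fgb were not well above background on any array. Lung is a mixture of cells, and fewer cells of a type cannot be told apart here from less RNA per cell.

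The comparison asks how the antioxidant genes stood after antithrombin given on top of endotoxin. The 10 genes did not move one way. Sod2 and the cystine carrier gene Slc7a11 were higher in every antithrombin mouse than in any saline mouse, Nqo1, Cbr3, Gclc and Srxn1 were lower, and Gclm, Txnrd1, Hmox1 and Nfe2l2 overlapped. None of the 10 passed the adjusted threshold of 0.05 (limma, Benjamini-Hochberg over all genes tested, adjusted p from 0.155 to 0.833), where 0.00616% of all genes passed. At an unadjusted p under 0.05, 5 of 10 were called (2 higher, 3 lower), against 21.6% of all genes, 8.73% higher and 12.9% lower. Groups did not overlap for 6 of 10, against 28.9% of all genes (2 higher and 4 lower, against 10.7% and 18.1%). The median log2 difference was -0.05 over the 10 and -0.05 over all genes tested.

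**Figure D1:**
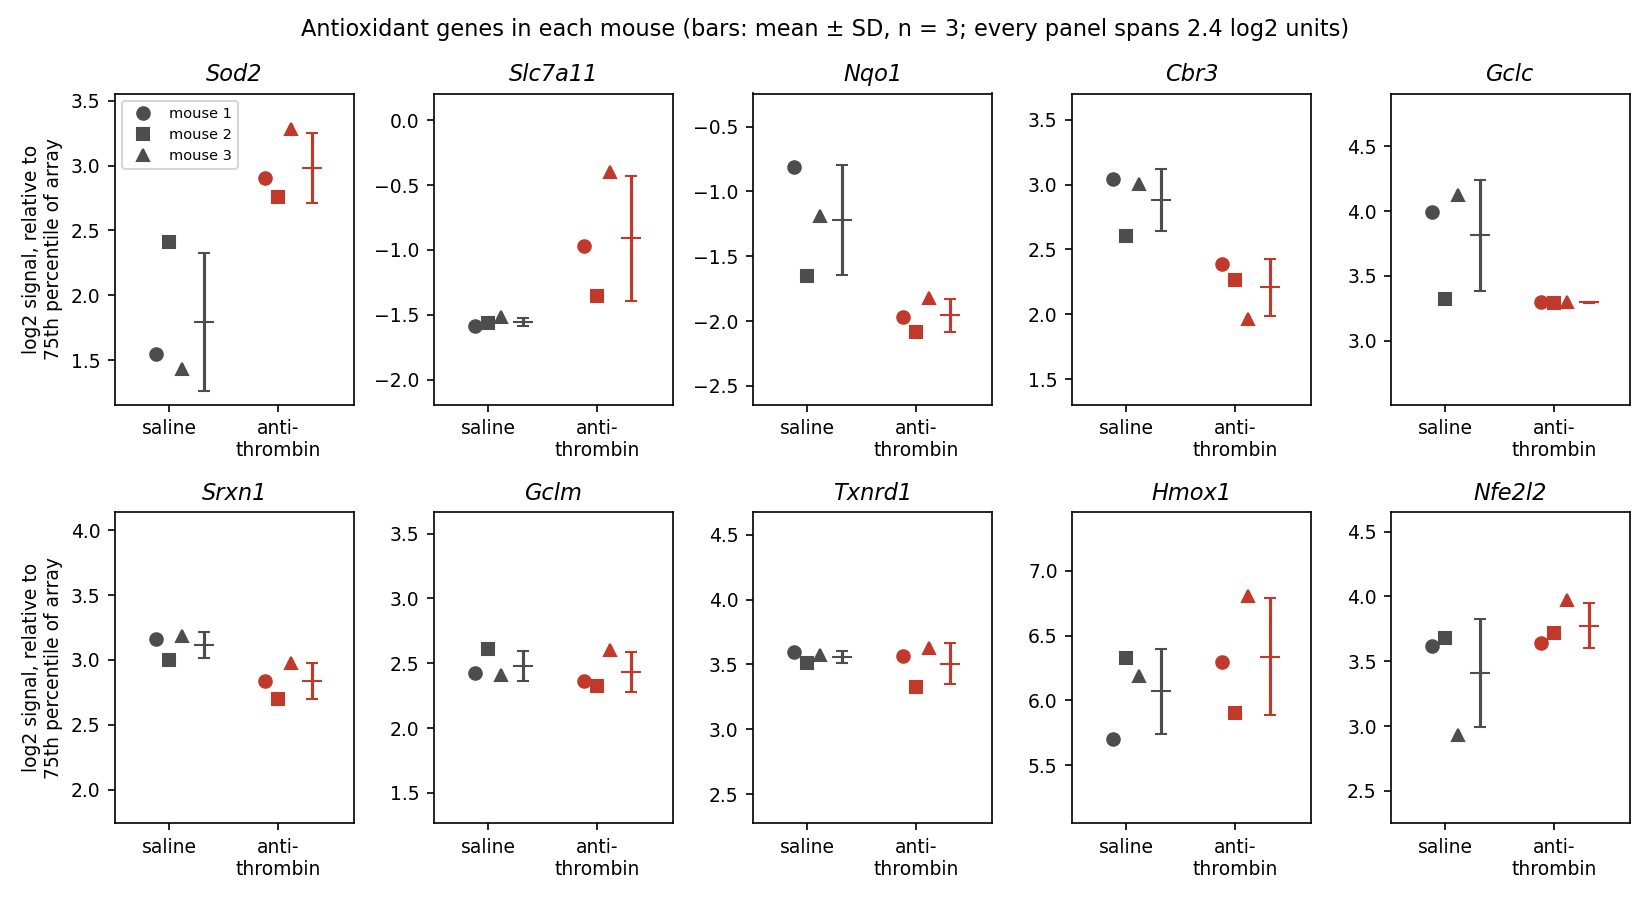
Log2 signal of each antioxidant gene (vertical axis, relative to the 75th percentile of the array) in 3 saline mice (grey) and 3 antithrombin mice (red), with the mean and SD of each group beside the points. Marker shapes give the mouse number, and the sample titles name no pairs. Sod2 and Slc7a11 lie higher in all 3 antithrombin mice, Nqo1, Cbr3, Gclc and Srxn1 lie lower, and the remaining 4 genes overlap.

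Sod2, whose enzyme turns mitochondrial superoxide into hydrogen peroxide, had the largest difference of the 10. Its log2 signal was 1.54, 2.41 and 1.43 in saline mice 1, 2 and 3, and 2.91, 2.76 and 3.28 in antithrombin mice 1, 2 and 3. Saline mouse 2 was the highest saline mouse, and the groups did not overlap. The means were 1.79 ± 0.53 (SD, n = 3) and 2.98 ± 0.27 (SD, n = 3). The log2 difference was 1.19 (SE 0.28, 95% interval 0.52 to 1.86), a 2.28-fold higher signal, and 1.54% of all genes tested had a larger absolute difference. It did not pass the adjustment with all mice (limma adjusted p = 0.155). It passed without saline mouse 2 (log2 difference 1.49, limma adjusted p = 0.0256), where 10.5% of all genes passed, 4.65% higher and 5.88% lower. Dropping that mouse by itself widens the gap between the groups, because it is the saline mouse most like the antithrombin mice.

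Nqo1 and Cbr3, both reductases and NRF2 targets, stood lower. Nqo1, the quinone reductase often used as a reading of NRF2 activity, was at -0.81, -1.65 and -1.19 in saline mice 1, 2 and 3 and at -1.97, -2.08 and -1.82 in antithrombin mice 1, 2 and 3. Every antithrombin mouse lay below the lowest saline mouse, which was mouse 2. The log2 difference was -0.74 (SE 0.22, 95% interval -1.26 to -0.22), a 1.67-fold lower signal (limma adjusted p = 0.166). Cbr3, a carbonyl reductase, was at 3.04, 2.61 and 3.00 in saline mice and at 2.39, 2.27 and 1.97 in antithrombin mice. The groups did not overlap, and saline mouse 2 was again the saline mouse nearest the antithrombin mice. The Cbr3 difference was -0.68 on the log2 scale (SE 0.17, 95% interval -1.09 to -0.27), a 1.60-fold lower signal (limma adjusted p = 0.155). Without saline mouse 2 both passed, Nqo1 with a log2 difference of -0.96 (limma adjusted p = 0.0328) and Cbr3 with -0.82 (limma adjusted p = 0.037).

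The genes of glutathione synthesis and its cystine supply differed among themselves. Gclc, the catalytic subunit of glutamate-cysteine ligase, which makes the rate-limiting step, was at 3.99, 3.32 and 4.12 in saline mice 1, 2 and 3. In antithrombin mice it was at 3.30, 3.29 and 3.30, with an SD of 0.0036 (n = 3), where the SD of the saline mice was 0.43 (n = 3). Saline mouse 2 was 0.02 above the highest antithrombin mouse, so the separation of the groups is narrow. The log2 difference was -0.52 (SE 0.21, 95% interval -1.03 to -0.01), a 1.43-fold lower signal (limma adjusted p = 0.227). It was -0.76 without saline mouse 2, where it passed (limma adjusted p = 0.0276), and -0.36 without saline mouse 3, where it did not (limma adjusted p = 0.478). Gclm, the regulatory subunit of the same ligase, was at 2.42, 2.61 and 2.41 in saline mice and at 2.36, 2.32 and 2.61 in antithrombin mice. The Gclm groups overlapped, and the difference was -0.05 on the log2 scale (SE 0.13, 95% interval -0.35 to 0.25, limma adjusted p = 0.833). The subunits of 1 enzyme thus had different values here, and their difference was not tested.

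Slc7a11, the cystine and glutamate exchanger that brings in cystine for glutathione, stood the other way from Gclc. Its log2 signal was -1.59, -1.56 and -1.52 in saline mice and -0.97, -1.36 and -0.40 in antithrombin mice 1, 2 and 3. The saline mice, mouse 2 included, lay within 0.07 of each other, while the antithrombin mice spanned 0.96. The log2 difference was 0.65 (SE 0.23, 95% interval 0.09 to 1.21), a 1.57-fold higher signal (limma adjusted p = 0.195). A second probe of the gene also gave 0.65, at -3.88, -3.94 and -3.68 in saline mice and -2.92, -3.59 and -3.05 in antithrombin mice. Antithrombin mouse 3 carried part of the difference, which was 0.39 without it (limma adjusted p = 0.363). Slc3a2, the heavy chain that carries Slc7a11 to the membrane, differed by 0.05 on the log2 scale (SE 0.10, limma adjusted p = 0.79), and it was chosen for mention once its values were known. Slc7a11 was the 1 gene of the 6 with separated groups for which saline mouse 2 was not the saline mouse nearest the antithrombin mean.

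The genes that recycle thiols had small differences. Srxn1, sulfiredoxin, which restores over-oxidised peroxiredoxins, was at 3.16, 3.00 and 3.18 in saline mice and at 2.84, 2.70 and 2.98 in antithrombin mice. The groups did not overlap, by a margin of 0.02, and the log2 difference was -0.28 (SE 0.12, 95% interval -0.56 to 0.01, limma adjusted p = 0.244). Txnrd1, the cytosolic thioredoxin reductase, was at 3.60, 3.51 and 3.57 in saline mice and at 3.57, 3.33 and 3.62 in antithrombin mice. The Txnrd1 groups overlapped, and the log2 difference was -0.05 (SE 0.12, 95% interval -0.34 to 0.23, limma adjusted p = 0.807). A second Txnrd1 probe gave -0.01.

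Hmox1 and Nfe2l2 had positive differences with intervals that included 0. Hmox1, haem oxygenase-1, the inducible enzyme of haem breakdown, was at 5.70, 6.33 and 6.19 in saline mice and at 6.30, 5.91 and 6.81 in antithrombin mice. The Hmox1 groups overlapped, and the log2 difference of 0.27 (SE 0.27) had a 95% interval from -0.37 to 0.90 (limma adjusted p = 0.565). It was 0.03 without antithrombin mouse 3 and 0.08 without saline mouse 1. Nfe2l2 was at 3.62, 3.68 and 2.93 in saline mice and at 3.64, 3.71 and 3.97 in antithrombin mice. Saline mouse 3 lay well below the other 5, which spanned 3.62 to 3.97. The Nfe2l2 log2 difference was 0.37 (SE 0.22, 95% interval -0.16 to 0.89, limma adjusted p = 0.356), and 0.13 without saline mouse 3. The activity of NRF2 is set largely by the stability of its protein, which arrays do not measure.

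**Figure D2:**
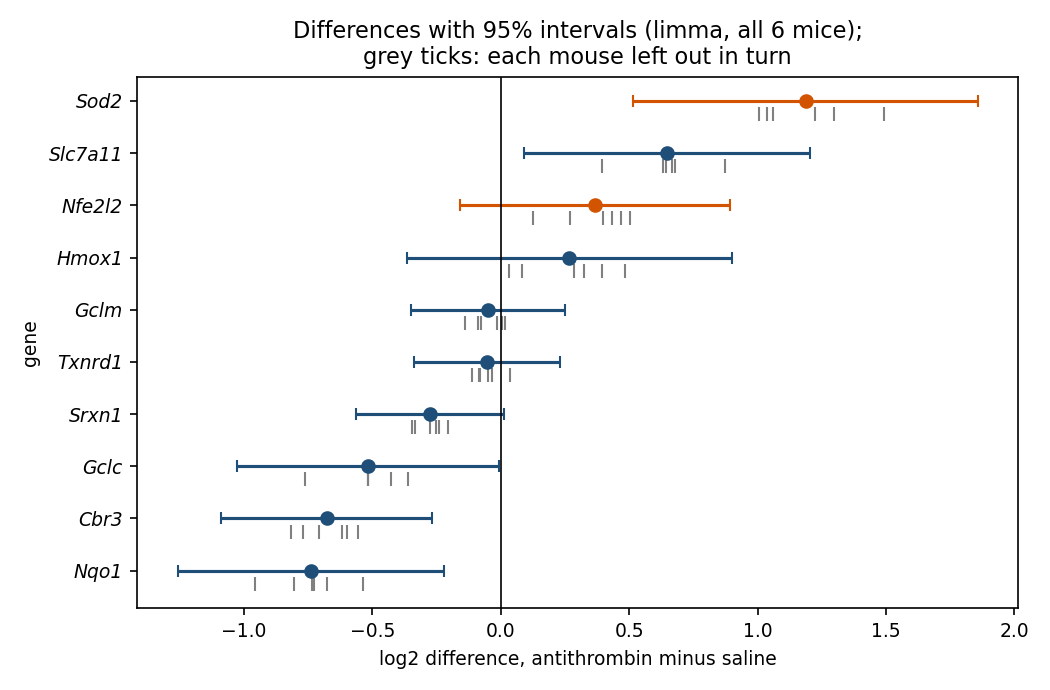
Log2 difference, antithrombin minus saline (horizontal axis), of the 8 NRF2 targets (blue) and of Sod2 and Nfe2l2 (orange), with 95% intervals from limma on all 6 mice; grey ticks give the difference with each mouse left out in turn. Nqo1, Cbr3, Gclc and Srxn1 stay below 0 and Sod2, Slc7a11, Hmox1 and Nfe2l2 above 0 with any 1 mouse left out, while Gclm and Txnrd1 have ticks on both sides.

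Setting the NRF2 targets against Sod2 within each array removes the scaling between arrays, since both signals come from the same array. All 8 targets had a lower signal relative to Sod2 in antithrombin mice, with a median change of -1.35 on the log2 scale. The median over all other genes tested was -1.24 on that scale, so most of the change is that of Sod2. The change was -1.93 for Nqo1, -1.86 for Cbr3, -1.70 for Gclc, -1.46 for Srxn1, -1.24 for Txnrd1, -1.24 for Gclm, -0.92 for Hmox1 and -0.54 for Slc7a11. Because the 8 share the Sod2 values, they are not 8 separate results, and Gclm and Txnrd1 differed by -0.05 each before Sod2 was subtracted.

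Relative to the saline mean, the Nqo1 to Sod2 value was 0.66, -1.05 and 0.39 in saline mice 1, 2 and 3 and -1.86, -1.83 and -2.09 in antithrombin mice. Saline mouse 2 lay between the other saline mice and the antithrombin mice. The groups did not overlap for 7 of the 8 targets (exact two-sided permutation test, p = 0.1, adjusted p = 0.114 over the 8), and they overlapped for Slc7a11 (exact p = 0.3, adjusted p = 0.3). Over all other genes tested, 84.5% did not overlap relative to Sod2, 84.4% with antithrombin mice lower, so the count says nothing particular to the NRF2 targets. Gclm, Txnrd1 and Hmox1 overlapped on their own and were separated only once Sod2 was subtracted. With 3 mice in each group 0.1 is the smallest p this test can give, so it could not pass 0.05 for any target. The ratio shows unequal change between Sod2 and a target, and not that either stayed the same.

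**Figure D3:**
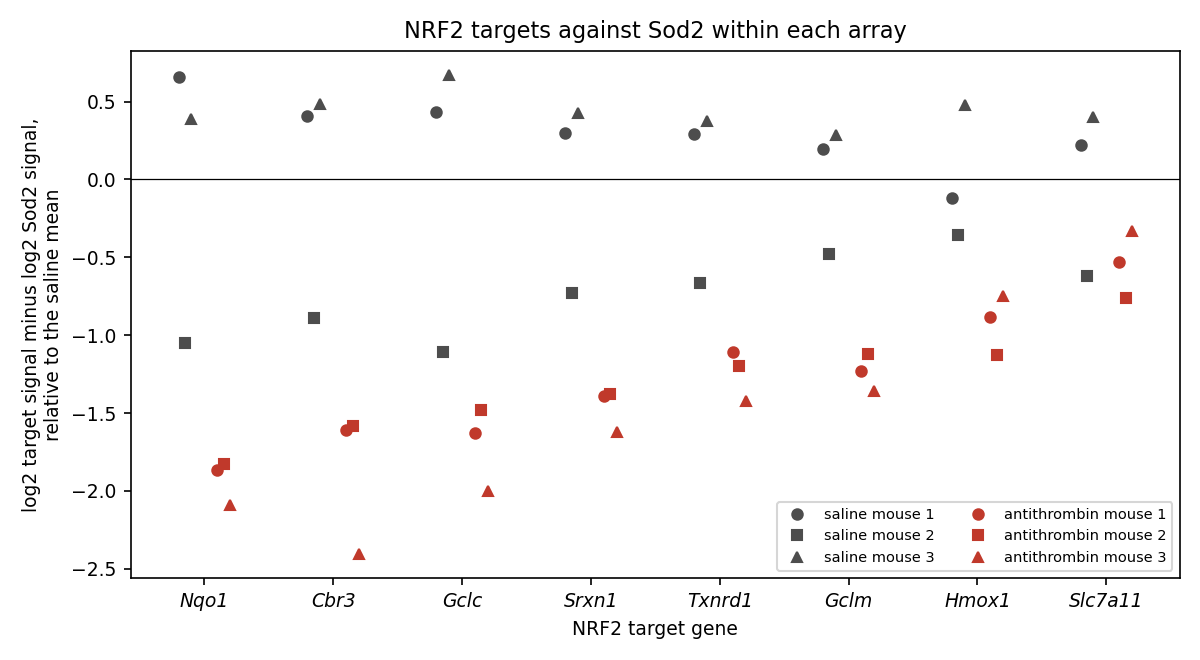
Log2 signal of each NRF2 target less that of Sod2 on the same array, relative to the saline mean (vertical axis), for 3 saline mice (grey) and 3 antithrombin mice (red), with marker shapes for mouse numbers. Antithrombin mice lie below all saline mice for 7 targets, as for 84.4% of all other genes tested, and overlap them for Slc7a11, and saline mouse 2 is the lowest saline mouse throughout.

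Genes whose values were most like those of 2 members were found by the root mean square distance between centred log2 values over the 6 mice, among 16594 other named genes well above background on all arrays. Nearest to Sod2 were Ptgr2 (distance 0.0833), Wdr4 (0.0908) and Mdn1 (0.092), with log2 differences of 1.05, 1.08 and 1.02. Slc7a11 was the member nearest to Sod2, at rank 1100. Nearest to Nqo1 were Ccl5 (0.0985), Epor (0.106) and Catsper3 (0.108), with log2 differences of -0.63, -0.69 and -0.61. Gclc was the member nearest to Nqo1, at rank 180. The distances are a description of 6 arrays, with saline mouse 2 between the other saline mice and the antithrombin mice in each of the 6 nearest genes.

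By an unadjusted p under 0.05 (limma) the regulators of NRF2 were called no more often than genes at large, and none passed the adjusted threshold. Of 12 tested, 2 were lower and 0 higher at an unadjusted p under 0.05 (limma), which is 16.7% of the list against 21.6% of all genes (12.9% lower), with a median log2 difference of -0.18 against -0.05 over all genes (-0.10 without saline mouse 3). Sqstm1, the autophagy receptor p62 that binds KEAP1 and is itself an NRF2 target, was at 5.92, 5.63 and 6.01 in saline mice and at 5.55, 5.45 and 5.53 in antithrombin mice. The Sqstm1 groups did not overlap, and its log2 difference was -0.34 (SE 0.13, limma adjusted p = 0.205). Fyn, a kinase linked to NRF2 export from the nucleus, differed by -0.30 and Keap1 by -0.20, both without overlap between the groups. Over the 12, groups did not overlap for 0 higher and 4 lower, against 10.7% and 18.1% of all genes. Bach1, the repressor that competes for the antioxidant response element, differed by 0.13.

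Further NRF2 targets, mainly detoxifying enzymes and transporters, were counted from a list of 17. By an unadjusted p under 0.05, 1 was higher while 2 were lower (limma, 0 at an adjusted p under 0.05), which is 17.6% of the list against 21.6% of all genes, and the median log2 difference was -0.17. Osgin1, an oxidative stress-induced growth inhibitor, was at 2.33, 2.03 and 2.41 in saline mice and at 1.85, 1.58 and 1.59 in antithrombin mice. It differed by -0.59 (SE 0.15, limma adjusted p = 0.155) with no overlap between groups. Esd, esterase D, differed by -0.36. Groups did not overlap for 2 of the 17 higher and 5 lower, against 10.7% and 18.1% of all genes. When saline mouse 2 was left out, 2 of the list passed the adjusted threshold (limma), each lower. Of all genes, 5.88% passed lower there.

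Genes that make and use glutathione were few among those called. Of 26 tested, 1 was higher, with 1 lower, by an unadjusted p under 0.05 (limma, 0 adjusted), which is 7.69% of the list against 21.6% of all genes. Of the 26, 20 had a negative difference, and the list median was -0.12. Over all genes, 18488 of 32456 had a negative difference, and the median was -0.05. Ggct, which splits gamma-glutamyl amino acids, differed by 0.53 and Oplah, 5-oxoprolinase of the same cycle, by -0.38. Gsr, glutathione reductase, differed by -0.15 with overlapping groups.

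Among the thioredoxins, peroxiredoxins and their partners, 0 of 17 were higher, with 3 lower, by an unadjusted p under 0.05 (limma, 0 adjusted), with a median of -0.04. That is 17.6% of the list against 21.6% of all genes. Sesn1, a p53- and FoxO-responsive sestrin, was at 2.31, 1.51 and 2.63 in saline mice and at 1.24, 1.23 and 0.98 in antithrombin mice. Its log2 difference was -0.997 (SE 0.28, limma adjusted p = 0.161), with saline mouse 2 the lowest saline mouse. Txnrd3, a thioredoxin reductase best known in testis, differed by -0.39. The abundant thiol proteins Txn1 and Prdx1 differed by 0.01 and 0.11, with overlapping groups.

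The enzymes that remove superoxide, peroxide and lipid peroxides form a short list with differences of both signs. Of 6 tested, 2 were higher, with 1 lower, by an unadjusted p under 0.05 (limma, 0 adjusted), with a median of 0.03. Of all genes, 8.73% were called higher and 12.9% lower by that measure. Cat, catalase, was at 1.60, 1.82 and 1.78 in saline mice and at 1.90, 2.05 and 2.26 in antithrombin mice, a difference of 0.34 on the log2 scale (SE 0.13, limma adjusted p = 0.216). The paraoxonases differed in sign, with Pon3 at 0.55 and Pon2 at -0.47, each without overlap between groups. Over the 6, groups did not overlap for 2 higher and 2 lower, against 10.7% and 18.1% of all genes. Sod1, the cytosolic copper and zinc dismutase, differed by -0.21 and Sod3, the extracellular dismutase, by 0.07, beside 1.19 for the mitochondrial Sod2.

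In haem and iron handling, 0 of 7 were higher, with 1 lower, by an unadjusted p under 0.05 (limma, 0 adjusted), with a median of -0.02. That 1 is 14.3% of the list, where 12.9% of all genes were called lower. The gene was Fech, ferrochelatase of haem synthesis, at -0.41, and Slc40a1, the iron exporter ferroportin, differed by 0.46 with overlapping groups. Of 8 enzymes that supply NADPH, 0 were called in either direction (limma, unadjusted p under 0.05), where 21.6% of all genes were called. Their median was 0.02. G6pdx, which opens the pentose phosphate pathway, differed by 0.29 and Me1, malic enzyme, by -0.28, for which another probe gave 0.09.

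Genes of the NF-kB response leaned the way of Sod2. Of 20 tested, 9 were higher, with 0 lower, by an unadjusted p under 0.05 (limma, 0 adjusted), which is 45.0% of the list against 21.6% of all genes, and the median log2 difference was 0.38. When saline mouse 2 was left out, 7 of the list passed over all genes, each of them higher (limma adjusted p under 0.05), where 4.65% of all genes passed higher. Ccl2, the monocyte attractant, was at 4.42, 4.79 and 4.42 in saline mice and at 5.95, 5.71 and 5.57 in antithrombin mice, a difference of 1.20 on the log2 scale (SE 0.16, limma adjusted p = 0.151). Tnf, tumour necrosis factor, was at -0.65, 0.33 and -0.68 in saline mice and at 0.63, 0.66 and 0.76 in antithrombin mice, a difference of 1.02. Classic NF-kB targets did not all go along: Nfkbia, the feedback inhibitor, differed by -0.18 with no overlap and Icam1 by 0.11 with overlap. Over the 20, groups did not overlap for 11 higher and 2 lower, against 10.7% and 18.1% of all genes. The 2 were Nfkbia and Birc3 (-0.26), the latter named once its values were known. The mean of the list relative to saline was -0.10, 0.33 and -0.23 in saline mice 1, 2 and 3 and 0.41 to 0.57 in antithrombin mice, so saline mouse 2 lay nearest the antithrombin mice here as for Sod2.

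Oxidant-producing enzymes were called in 1 of 10 tested genes (limma, unadjusted p under 0.05, 0 adjusted), against 21.6% of all genes. That gene was Nos2, inducible nitric oxide synthase, at 0.10, 0.55 and -0.82 in saline mice and 0.78, 0.73 and 1.13 in antithrombin mice, a difference of 0.94 on the log2 scale (SE 0.34, limma adjusted p = 0.194). Cybb, the catalytic subunit of the phagocyte NADPH oxidase, differed by 0.36 and Ncf4, its cytosolic partner, by 0.58, both with overlapping groups.

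**Figure D4:**
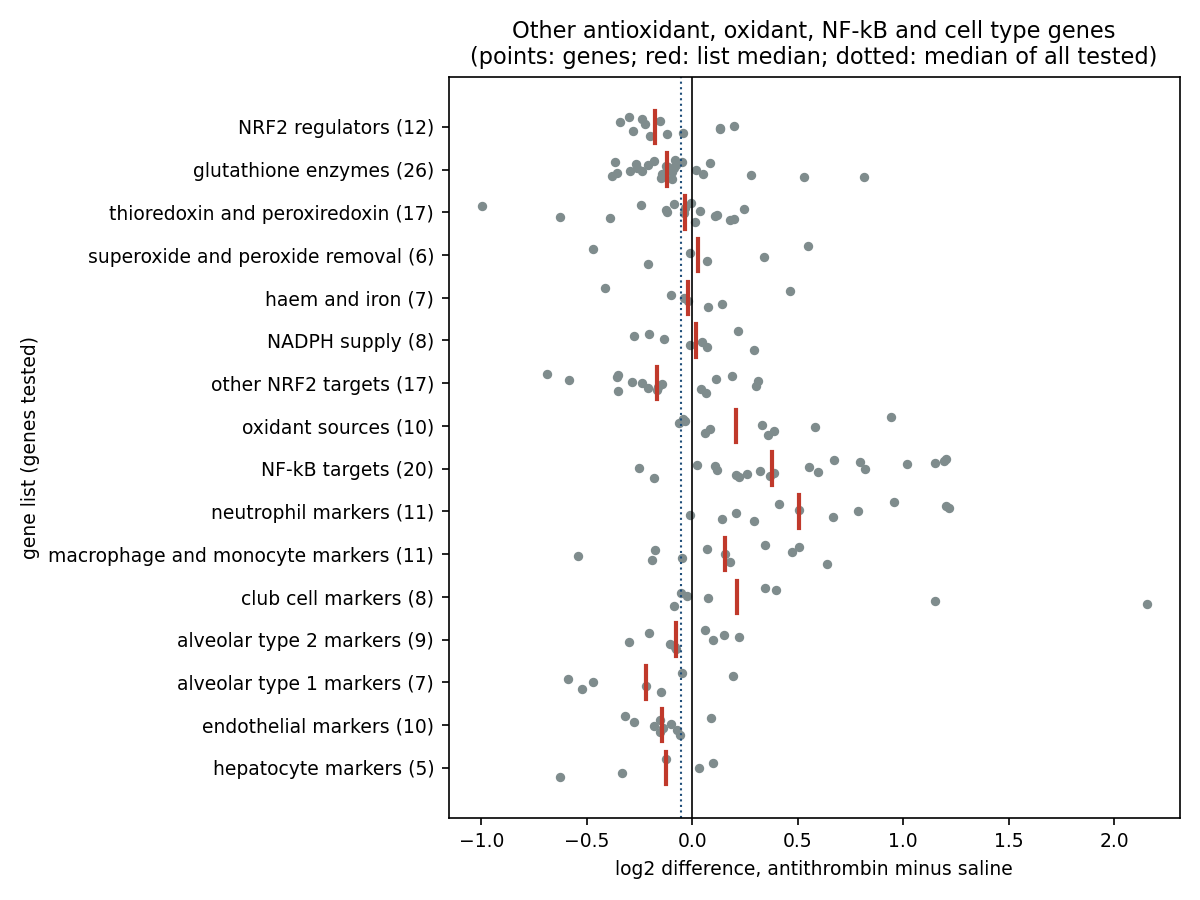
Log2 difference, antithrombin minus saline (horizontal axis), of every tested gene of each list (grey points), with the list median in red and the median of all genes tested as a dotted line. NF-kB targets (median 0.38) and neutrophil markers (median 0.50) lie to the right, while NRF2 regulators (median -0.18) and other NRF2 targets (median -0.17) lie to the left of the dotted line at -0.05.

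Markers of other cell types moved alongside, and their part in the antioxidant values was not tested. Neutrophils carry much Sod2 when activated, and of 11 neutrophil markers 5 were higher, with 0 lower, by an unadjusted p under 0.05 (limma, 0 adjusted), with a median of 0.50. That is 45.5% of the list, where 8.73% of all genes were called higher. Their mean relative to saline was -0.20, 0.35 and -0.15 in saline mice 1, 2 and 3 and 0.54 to 0.63 in antithrombin mice. Without saline mouse 2, 3 of the neutrophil markers passed the adjusted threshold (limma), each higher, where 4.65% of all genes passed higher. Camp and Padi4 differed by 1.21 and 0.95, while S100a8 and S100a9, chosen once their values were known for their abundance in these cells, differed by 0.29 and 0.14. Of 11 macrophage and monocyte markers 2 were higher by that measure (18.2% of the list, where 8.73% of all genes were called higher). They were Adgre1 (0.64, another probe 0.04) and Lyz2 (0.34). Differences were positive for 7 and negative for 4, among the latter Marco (-0.54) and Ly6c2 (-0.18), chosen once their values were known. Groups did not overlap for 2 markers higher and 2 lower, against 10.7% and 18.1% of all genes. The list mean was -0.18 to 0.14 in saline mice and -0.04 to 0.27 in antithrombin mice.

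Nqo1 and Gclc are also expressed in lung epithelium, whose markers went different ways. Club cell markers had a median of 0.21 (0.06 without saline mouse 1), with 2 of 8 higher at an unadjusted p under 0.05 (limma), Scgb3a2 (1.15) and Aldh1a7 (0.39), where 8.73% of all genes were called higher. Saline mouse 1 was lowest at a list mean of -0.67 against 0.22 to 0.45 in the other saline mice. Scgb3a1, a club cell secretoglobin chosen once its values were seen, was at 0.89 in saline mouse 1 and at 8.05 and 7.17 in saline mice 2 and 3, with antithrombin mice from 6.90 to 7.88. Scgb3a1 weighs heavily on the list mean of saline mouse 1, and the other markers were not all low there. In saline mice 1, 2 and 3 Cyp2f2 was at 6.90, 6.69 and 6.38 and Aldh1a7 at 2.57, 2.50 and 2.53. Hp was at 7.66, 7.83 and 7.98 and Gabrp at 0.63, 0.86 and 1.33. Alveolar type 1 markers had a median of -0.22 (-0.34 without saline mouse 1 and -0.13 without saline mouse 2). At an unadjusted p under 0.05 (limma) 3 of 7 were lower, where 12.9% of all genes were called lower. The 3 included Hopx (-0.52) and Cav1 (-0.59). List means were -0.06 to 0.10 in saline mice and -0.32 to -0.21 in antithrombin mice. With saline mouse 2 left out, 3 of the 7 passed the adjusted threshold (limma), each lower, where 5.88% of all genes passed lower. Alveolar type 2 markers had 0 of 9 called (limma, unadjusted p under 0.05), where 21.6% of all genes were called. Their median was -0.08, with Sftpd at -0.30 and Lamp3 at 0.22. Endothelial markers had a median of -0.14 (-0.05 without antithrombin mouse 1). By the same measure 1 of 10 was lower, Esam (-0.32), where 12.9% of all genes were called lower. Cldn5 differed by -0.28 with overlapping groups. Hepatocyte markers had 0 of 5 called (limma, unadjusted p under 0.05) and a median of -0.13 (-0.0053 without saline mouse 3 and -0.23 without saline mouse 2), with Alb at -0.63 and Apoa2 at -0.33, for which another probe gave 0.13. The Alb probe was faint, with a processed signal of 10.2 to 31.2, and another Alb probe was well above background on 0 arrays. Apob (17.1 to 21.5) and Cyp3a11 (34.9 to 53.1) were faint as well.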

How the data were processed

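RNA from 6 lungs was labelled with Cy3 and hybridised to 1 Agilent array per mouse, and groups came from the sample titles. Scanner files were deposited as spot intensity, extracted with Agilent Feature Extraction 10.7.3.1 per the file headers, while the submitters' processing notes name 9.1. Its processed signal is background-subtracted and not scaled across arrays. The value table deposited beside it is in log2 units. It matched the log2 processed signal within 0.01 for 100% of probes once probe means and array shifts were taken out, so the scaling between its arrays and the origin of its centring stay unknown. Its column medians ran from -0.0369 to 0.0763.

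Control spots and outlier flags were left out and spots of a probe averaged. Of 56605 probes, 32994 were named through RefSeq transcripts of GRCm38.p6, and the array design names build mm9, so gene coordinates were not used. The brightest probe stood for a gene, and testing needed a signal well above background on 3 or more arrays. Differences were tested two-sided with limma 3.58.1 in R 4.3.3, adjusted over all 32456 genes and unnamed probes tested. The fit was tested on simulated data. The members and gene lists were chosen with earlier results of these data known, and describe rather than test. From each list the 2 genes with the smallest p and 12 fixed genes were named, along with the 3 genes nearest to Sod2 and to Nqo1. Alternatives covered background, scaling, filter, probe choice, value table, variance, weights, blocks and each mouse left out. Exact tests used scipy 1.17.1, and figures matplotlib 3.10.9. The number of arrays limits the precision. The sample titles name no pairs. Deviations of same-numbered mice from their group means had correlations from -0.276 to -0.0096, and saline mouse 3 with antithrombin mouse 2 reached 0.284. Deviations of 3 mice sum to 0 in each group, so these values cannot decide whether mice were paired.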

Additional observations from a re-analysis of the deposited data

How the results depend on the processing

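The count of genes at an adjusted p under 0.05 (limma), 2 with all mice, was 1 with normexp background correction, quantile normalization, median scaling, no filter, a filter on all 6 arrays, a trended and robust variance or the array row as a block. It was 0 with the mouse number as a block (5078 at an unadjusted p under 0.05). Leaving out a mouse gave 0 to 3415, the highest without saline mouse 2. The count of the 10 antioxidant genes at an unadjusted p under 0.05, 5 with all mice, was 3 to 5 with a mouse left out, 3 without saline mouse 1, saline mouse 3 or antithrombin mouse 1, and 4 with the replicate block. Over all genes tested that count moved too. It was 7014 with all mice, 4745 without saline mouse 1, 10319 without saline mouse 2 and 4208 without saline mouse 3. Without antithrombin mouse 1, 2 or 3 it was 5058, 5134 and 4427. The median change of the 8 NRF2 targets against Sod2 ran from -1.70 to -1.17 with a mouse left out and from -1.48 to -1.34 under the other alternatives, with -1.35 in the replicate block. With a mouse left out, Gclm ran from -0.138 to 0.0156 (positive without saline mouse 2 and, at 0.0037, without antithrombin mouse 2), and Txnrd1 from -0.112 to 0.0358 (positive without antithrombin mouse 2). The other 8 genes kept their sign in all 17 alternatives. The adjusted p ran over the alternatives from 0.0256 to 0.353 for Sod2, from 0.0328 to 0.368 for Nqo1, from 0.037 to 0.354 for Cbr3 and from 0.0276 to 0.478 for Gclc, and each passed only without saline mouse 2. List medians near 0 changed sign in some alternatives. With quantile normalization those of haem and iron (0.08), the thioredoxins (0.02) and the alveolar type 2 markers (0.01) were positive, as were haem and iron without antithrombin mouse 2 (0.08) or with the mean of detected probes (0.01) and the thioredoxins without saline mouse 2 (0.01). Superoxide and peroxide removal was negative with array weights (-0.01) and without saline mouse 2 (-0.0063) or 3 (-0.0020), and NADPH supply was negative without saline mouse 1 (-0.05), saline mouse 3 (-0.02) or antithrombin mouse 1 (-0.03). The sample titles name no pairs of mice, and the cause of these shifts was not tested.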
